A study of Homo sapiens with 8 samples.

Results

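The 82 genes described here encode proteins of the cytosolic ribosome, measured in K562 cells, an established chronic myeloid leukaemia line with erythroid features. Genes were taken by name, as symbols made up of RPL or RPS, a number and, optionally, the letter A, X or L and 1 final digit, plus RPLP0, RPLP1, RPLP2 and RPSA, provided that their deposited log2 values averaged 0 or more over the 8 libraries. Of 85 entries with such names 82 passed that level, out of 14665 genes tested and 35805 listed. They comprise 46 core genes of the large subunit, 31 core genes of the small subunit and 5 paralogs whose symbol ends in L or L1 (RPL7L1, RPL22L1, RPL26L1, RPL39L and RPS27L). The 3 entries below the level were RPL3L and RPL10L, at 0 to 5 and 0 to 1 reads per library, and a second RPL41 entry on chromosome 7, at 0 to 7 reads. RPL41 here is the entry on chromosome 12. The lowest member inside the level, RPL22L1, had a mean deposited log2 value of 4.32, and the highest entry outside it, the chromosome 7 RPL41, had -0.56.

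All cells carried dCas9-KRAB, in which a Cas9 that cannot cut is joined to the KRAB repressor domain and silences the promoter to which a guide leads it. Groups of 2 libraries each came from cells with the guide sg1-IRF2, cells with the guide sg2-IRF2, cells with the guide sgAAVS1, directed at a safe-harbour site as negative control, and untransduced dCas9-KRAB cells. RNA was taken 7 days after transduction from the cells with a guide. The labels name no clone and leave unsaid whether both libraries of a group stem from separate cultures, so p-values measure the spread between libraries, which may be technical. The question the design puts is what repression of IRF2, a DNA-binding protein of the interferon regulatory factor family, does to RNA levels in these cells.

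Each ribosome is built from ribosomal RNA and a set of proteins that are needed in equal copy number, 1 of each for nearly all of them. Their mRNAs are among the most abundant of growing cells and typically begin with a C followed by a run of pyrimidines, the 5′ terminal oligopyrimidine (TOP) tract. Through that tract the kinase mTOR and the RNA-binding protein LARP1 adjust how much of these mRNAs is translated or stored, so a change in ribosome production need not appear in mRNA levels. Several members also have paralogs that can take the place of the core protein in some tissues, such as RPL3L in muscle and RPL39L and RPL10L in testis.

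The start regions of the genes on which the results turn are shown first. In the windows used, most core members had a run like the TOP tract and most paralogs lacked it. Promoter windows from RefSeq (GRCh38.p14), 250 bases before to 50 bases after each annotated start, were matched by symbol for 66 of the 82 members, 62 core genes and 4 paralogs. Each line below gives 70 bases, 45 before the start and 25 from it, 5′ to 3′ on the gene's own strand. Capitals mark a run of C and T that begins with C, within 10 bases of the annotated start, and has at least 5 further pyrimidines. The first pair holds RPS29, which has no such run at the annotated start used, and RPS6, a typical core gene. The windows lie at chr14:49598686-49598755 (minus strand) and chr9:19380212-19380281 (minus strand).
RPS29: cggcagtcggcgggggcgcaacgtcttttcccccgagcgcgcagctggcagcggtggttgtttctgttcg
RPS6: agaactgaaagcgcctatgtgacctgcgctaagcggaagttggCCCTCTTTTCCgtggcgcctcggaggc

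The next 3 pairs set a core gene above its paralog, RPS27 (chr1:153990717-153990786, plus strand) and RPS27L (chr15:63157453-63157522, minus strand), RPL22 (chr1:6199571-6199640, minus strand) and RPL22L1 (chr3:170870171-170870240, minus strand), and RPL26 (chr17:8383169-8383238, minus strand) and RPL26L1 (chr5:172958684-172958753, plus strand). In these windows RPS27L and RPL26L1 have no run where their core partners do, and RPL22L1 has one, as RPL22 does.
RPS27: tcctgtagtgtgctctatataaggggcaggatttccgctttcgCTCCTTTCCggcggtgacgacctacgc
RPS27L: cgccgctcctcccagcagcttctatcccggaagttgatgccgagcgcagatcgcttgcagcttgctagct
RPL22: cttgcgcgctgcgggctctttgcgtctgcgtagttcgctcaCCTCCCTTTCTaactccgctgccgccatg
RPL22L1: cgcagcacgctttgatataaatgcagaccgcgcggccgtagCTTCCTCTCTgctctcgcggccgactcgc
RPL26: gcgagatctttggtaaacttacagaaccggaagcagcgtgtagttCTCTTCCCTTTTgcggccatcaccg
RPL26L1: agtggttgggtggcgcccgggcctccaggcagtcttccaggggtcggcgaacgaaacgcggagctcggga

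A run of this kind was found in 50 of 62 core members (80.65%) and 1 of 4 paralogs, against 20.7% of the promoters of all tested genes and 20.53% of all 27305 promoters. The 12 core members without one include RPL3, RPL11, RPL15, RPS26 and RPS29. A start annotated away from the one in use would also give that result. Each gene was read at a single annotated start, so an absent run, as in RPS29, does not show that its mRNA lacks the tract. Motifs were searched on both strands of the 300-base window. CCGGAA, the core that ETS factors such as GABPA bind, lay in 53.23% of core windows, against 30.56% of those of tested genes. GGGCGG, a GC box, lay in 54.84% of core windows, against 70.36%, and TATAAA in 8.065%, against 5.191%. AAGATGG, the core of the YY1 site, lay in 12.9% of core windows, against 7.907%. GAAA followed after 2 bases of any kind by a second GAAA, the repeat that interferon regulatory factors recognise, lay in 4 core windows (RPL29, RPS9, RPS12 and RPS16), 6.452% against 2.747%. A match is a run of letters and not a measured binding site.

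IRF2 checked the labels. The sg1-IRF2 libraries held 4 and 8 IRF2 reads and the sg2-IRF2 libraries 22 and 21, against 196 and 291 with sgAAVS1 and 271 and 268 in untransduced cells. Libraries held between 5248359 and 6738348 reads in genes. Erythroid genes of K562 were present, with 11 of 11 tested and 7637 to 8994 reads in sum per library, and 1 of them was called in any comparison, HBZ, higher with sgAAVS1 than in untransduced cells (0.35 ± 0.09, SE, limma adjusted p = 0.0351). Of 13 genes that mark T cells, B cells and epithelium 3 passed the level for testing, at 634 to 792 reads in sum, and 5 had no read in any library.

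Core ribosomal protein genes took a near-constant and small share of the reads. The 77 core genes together held 46173 and 48048 reads with sg1-IRF2, 50303 and 48796 with sg2-IRF2, 44023 and 49119 with sgAAVS1, and 49484 and 50055 in untransduced cells. That was 0.803% and 0.751% of all reads in sg1-IRF2 libraries and 0.781% and 0.797% in sg2-IRF2 libraries, against 0.839% and 0.729% in sgAAVS1 libraries and 0.785% and 0.792% in untransduced cells. The lowest and the highest share both belonged to sgAAVS1 libraries, so the groups overlapped. Genes of the large subunit held between 1.72 and 1.75 times the reads of those of the small subunit in all 8 libraries.

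Single core genes spanned a narrow range of levels. On the deposited log2 scale, not corrected for length, mean values ran from 5.52 in RPS26 to 7.96 in RPL37, which were 248 and 1347 reads per library on average. Per base of the shortest principal transcript in GENCODE release 29, the median core gene had 0.808 reads, against 0.129 for the median tested gene. The densest members were RPL15 at 1.47, RPL13 at 1.35, RPS29 and RPS19 at 1.24 each and RPL32 at 1.17 reads per base. The sparsest core members were RPL37 at 0.175, RPL37A at 0.182, RPL27A at 0.184, RPS28 at 0.198 and RPS23 at 0.217 reads per base. These 5 have long annotated transcripts for the family (1326 to 7686 bases, against a core median of 705), so their low density also reflects which transcript was counted as principal. The paralogs ran from 0.034 reads per base in RPS27L to 0.399 in RPL7L1, which overlaps the range of the core genes. In K562 cells RPL26L1, at 0.193 reads per base, stood below RPL26 at 0.803, and RPL39L at 0.224 stood below RPL39 at 0.669.

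No ribosomal protein gene passed the test when both IRF2 guides were set against sgAAVS1. The limma moderated test over all genes, adjusted by Benjamini-Hochberg, called 0 of the 82 members, against 1.42% of all tested genes (208 of 14665). At an unadjusted p under 0.05 it picked 1 member, RPS27L, where 11.1% of tested genes did so, and limma-voom on the recovered reads called 0. Values of the 4 IRF2-guide libraries and the 2 sgAAVS1 libraries overlapped for all 82 members, while 15.5% of tested genes had no overlap. The first sgAAVS1 library was the highest of all libraries for 63 of the 77 core genes and the second the lowest for 57. Overlap was therefore near fixed for those genes, and this count cannot show that the guides left them unchanged. That gap also enters the spread used in the test. The median difference of the 77 core genes was 0.00 on the aligned log2 scale, the same as over all tested genes, and 41 of the 77 lay above 0. The quartiles of the core differences were -0.02 and 0.02, against -0.06 and 0.07 over all tested genes.

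The errors were small enough to bound each core difference as counted, which is not the same as a bound on the mRNA. Standard errors of the log2 differences ran from 0.04 to 0.08 over the 77 core genes, and for all 77 the 95% interval lay within a 1.2-fold change in either direction. Among the 82 members this held for 80, with RPS27L and RPL22L1 outside. These bounds hold for the difference between group means as measured. They do not cover the features of depth and read density given further down, which move with the same values. Core replicates also differed by less than independent reads would give, so small errors need not mean a small change in mRNA. Leaving out sgAAVS1 replicate 1 or 2 moved the median core difference to 0.12 or -0.11.

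**Figure D1:**
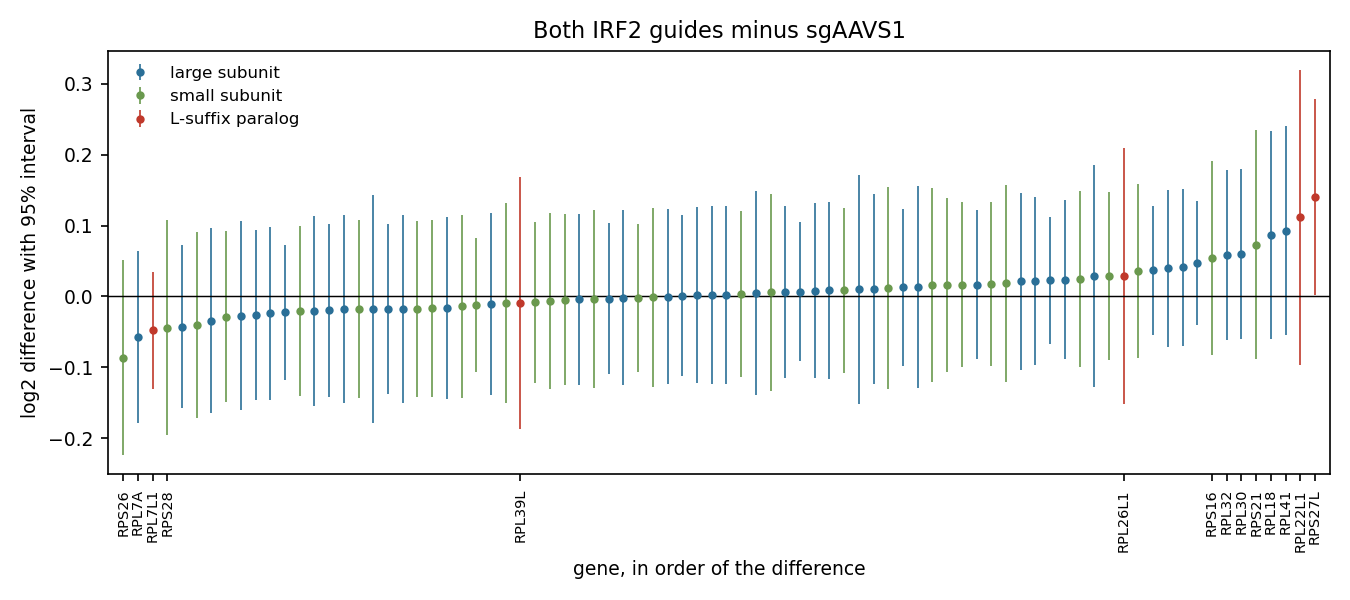
Log2 difference between both IRF2 guides and sgAAVS1 (y axis, library medians aligned) for the 82 genes in order of size (x axis, with the 4 lowest, the 8 highest and the paralogs named), with 95% limma intervals and colours for large-subunit, small-subunit and paralog genes. Core differences run from -0.09 in RPS26 to 0.09 in RPL41 and every core interval crosses 0. RPS27L, at 0.14, is the highest member.

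The large-subunit members of lowest p in that comparison were RPL41, RPL18, RPL27A and RPL30, and none approached the threshold (adjusted p from 0.711 to 0.795, limma). RPL41, the smallest ribosomal protein, had aligned log2 values of 5.98 and 5.69 in sg1-IRF2 libraries and 5.88 and 5.83 in sg2-IRF2 libraries, against 5.82 and 5.69 in sgAAVS1 libraries and 5.85 and 5.85 in untransduced cells. Its sg1-IRF2 libraries lay further apart than the group means did, and the difference was 0.09 ± 0.07 (SE). RPL18 had 6.76 and 6.63 in sg1-IRF2 libraries and 6.78 and 6.80 in sg2-IRF2 libraries, against 6.84 and 6.47 in sgAAVS1 libraries and 6.73 and 6.69 in untransduced cells. Its highest and its lowest library were the 2 sgAAVS1 libraries, and exons of SPHK2 on the opposite strand overlap it. Differences were 0.05 ± 0.04 for RPL27A and 0.06 ± 0.06 for RPL30 (SE).

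Among the small-subunit members of lowest p were RPS26, RPS21 and RPS16 (adjusted p from 0.710 to 0.851, limma). RPS26, which sits at the mRNA exit of the small subunit, had aligned log2 values of 5.51 and 5.44 in sg1-IRF2 libraries and 5.47 and 5.54 in sg2-IRF2 libraries, against 5.64 and 5.51 in sgAAVS1 libraries and 5.47 and 5.57 in untransduced cells. Its difference of -0.09 ± 0.07 (SE) was the lowest of the 82 members. RPS21 stood at 0.07 ± 0.08 and RPS16 at 0.05 ± 0.07 in the same comparison. All 3 overlapped between the groups.

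Members chosen for a known role were not called either. RPL5 and RPL11, which with the smallest large-subunit ribosomal RNA bind MDM2 when ribosome assembly fails, differed by 0.01 ± 0.06 and -0.00 ± 0.06 on the log2 scale between both IRF2 guides and sgAAVS1. RPL11 had 6.83 and 6.71 in sg1-IRF2 libraries and 6.79 and 6.82 in sg2-IRF2 libraries, against 6.92 and 6.65 in sgAAVS1 libraries and 6.81 and 6.80 in untransduced cells. The 2 sgAAVS1 libraries again enclosed the other 6. RPS19, the gene most often mutated in Diamond-Blackfan anaemia, differed by -0.00 ± 0.06, and RPS14, lost in myelodysplastic syndrome with deletion of the long arm of chromosome 5, by -0.00 ± 0.05.

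The stalk proteins RPLP0, RPLP1 and RPLP2, which recruit the translation factors, differed by -0.04 ± 0.05, -0.02 ± 0.06 and -0.02 ± 0.06 between both IRF2 guides and sgAAVS1 (log2, SE). RPS6, the substrate of the S6 kinases downstream of mTOR, had aligned log2 values of 7.11 and 6.97 in sg1-IRF2 libraries and 7.03 and 7.13 in sg2-IRF2 libraries, against 7.20 and 6.95 in sgAAVS1 libraries and 7.09 and 7.08 in untransduced cells. Its difference was -0.02 ± 0.06. RPSA, also known as the laminin receptor precursor, stood at -0.02 ± 0.06. RPL3, near the catalytic centre, stood at 0.01 ± 0.06, RPL10, which joins late in assembly, at 0.02 ± 0.05, and RPS27A, made as a fusion with ubiquitin, at 0.03 ± 0.06.

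Neither guide alone gave a call among the members. With sg1-IRF2, which left the fewer IRF2 reads, 0 of 82 members were called against sgAAVS1 (limma), where 0.791% of tested genes were. None had an unadjusted p under 0.05, against 6.44% of tested genes. With sg2-IRF2, 0 of 82 were called against sgAAVS1, where 3.41% of tested genes were, and 2 members had an unadjusted p under 0.05 (RPS27L and RPS29), against 17% of tested genes. Limma-voom called 0 in both. The median core difference was -0.01 with sg1-IRF2 and 0.01 with sg2-IRF2 on the log2 scale, and the interval lay within 1.2-fold for 77 and 73 of the 77 core genes.

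Few members had values that did not overlap between the groups. The gap between the sgAAVS1 libraries, shared by the core genes, enters each count below. The 2 sg1-IRF2 and 2 sgAAVS1 libraries did not overlap for 1 member (RPS26), against 30.4% of tested genes. The 2 sg2-IRF2 and 2 sgAAVS1 libraries did not overlap for 7 members, against 43.9%. Of those 7, 6 were higher with sg2-IRF2 (RPL27A, RPL37, RPL41, RPS29, RPL22L1 and RPS27L, against 22.4% of tested genes) and RPL7L1 was lower (against 21.5%).

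Against untransduced cells both IRF2 guides gave 0 calls among 82 members (limma), where 2.52% of tested genes were called. No member had an unadjusted p under 0.05, against 14.7% of tested genes, and limma-voom called 0. The groups did not overlap for 3 members, against 22.7% of tested genes, with RPL22 and RPL26L1 higher (against 12.5%) and RPL37 lower with the guides (against 10.2%). The median core difference was -0.00 on the log2 scale, beside 0.01 over all tested genes. This comparison shares the IRF2-guide libraries with the one against sgAAVS1. The gap between the sg1-IRF2 libraries, shared by the core genes, enters the count of members that did not overlap.

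The control guide and the untransduced cells also gave no call among the members. sgAAVS1 against untransduced cells called 0 of 82 (limma), where 4.42% of tested genes were called, the highest share of the 5 comparisons with a control. No member had an unadjusted p under 0.05, against 18.5% of tested genes, and limma-voom called 0. The groups did not overlap for 6 members, against 44.4% of tested genes, with 5 lower with sgAAVS1 (RPL37, RPL41, RPS29, RPL22L1 and RPS27L, against 21.4%) and RPL7L1 higher (against 23%). The gap between the sgAAVS1 libraries, shared by the core genes, enters that count as well. The median core difference was -0.01 on the log2 scale, and 30 of 77 core genes lay above 0.

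Between the guides, sg1-IRF2 against sg2-IRF2, 0 of 82 members were called (limma), where 1.58% of tested genes were, and limma-voom called 0. RPS29 and RPS27L had an unadjusted p under 0.05, 2 members where 13.6% of tested genes did. The libraries did not overlap for 14 members, 12 lower and 2 higher with sg1-IRF2, which is 17.1% of members against 47.1% of tested genes. Of the tested genes 23.6% were lower and 23.5% higher in this way. The 2 sg1-IRF2 libraries themselves lay apart by a median of 0.13 (log2), with the same sign in all 77 core genes. That gap makes a lack of overlap less likely in core genes and enters the count. Core genes leaned slightly lower with sg1-IRF2, with a median difference of -0.03 on the log2 scale and 15 of 77 above 0. On the values as deposited, without aligning library medians, that median was 0.08, the opposite direction. A test of any difference among the 4 groups (limma F-test) called 0 of 82 members, where 6.31% of tested genes were called, and 2 members had an unadjusted p under 0.05, against 20.2%.

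RPS29 and RPS27L came nearest to the threshold. RPS29, a zinc-binding protein of the small-subunit head, had aligned log2 values of 6.04 and 5.86 in sg1-IRF2 libraries and 6.18 and 6.19 in sg2-IRF2 libraries, against 6.08 and 5.98 in sgAAVS1 libraries and 6.14 and 6.20 in untransduced cells. In reads this was 329 and 329 in sg1-IRF2 libraries and 411 and 388 in sg2-IRF2 libraries, against 309 and 377 in sgAAVS1 libraries and 389 and 410 in untransduced cells. The 4 libraries with sg2-IRF2 or without a guide were all above the 4 with sg1-IRF2 or sgAAVS1. Pairs of groups across that split often did not overlap in other genes either. The shares of tested genes were 47.1% for sg1-IRF2 against sg2-IRF2, 44.4% for sgAAVS1 against untransduced cells and 43.9% for sg2-IRF2 against sgAAVS1. For sg1-IRF2 against sgAAVS1 it was 30.4%. How many tested genes have the full order of RPS29 was not counted. The difference was -0.24 ± 0.07 (SE) for sg1-IRF2 against sg2-IRF2 (limma adjusted p = 0.0972), 0.15 ± 0.07 for sg2-IRF2 against sgAAVS1 (adjusted p = 0.247) and 0.04 ± 0.06 for both guides against sgAAVS1 (adjusted p = 0.899).

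The call on RPS29 depended on the fit. For sg1-IRF2 against sg2-IRF2 it was called under 6 of 18 alternatives, with adjusted p from 0.00473 to 0.609 (limma), among them the fits without sgAAVS1 replicate 1 (0.0127) and without sgAAVS1 replicate 2 (0.0121). Its difference kept its sign, from -0.33 to -0.12 on the log2 scale. The listed span of RPS29 (chr14:49570984-49599164, hg38, minus strand) overlaps exons of LRR1 on the opposite strand, and the libraries are directional but the strand setting of the counting is not given, so reads of the pair cannot be told apart. In all, 30 of the 82 members overlap exons of a gene on the opposite strand.

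RPS27L, a paralog of RPS27 known as a target of p53, had aligned log2 values of 5.29 and 5.25 in sg1-IRF2 libraries and 5.51 and 5.47 in sg2-IRF2 libraries, against 5.30 and 5.19 in sgAAVS1 libraries and 5.39 and 5.36 in untransduced cells. The sg2-IRF2 libraries were the highest, the untransduced ones came next, and the other 4 lay lower. The difference was 0.25 ± 0.08 (SE) for sg2-IRF2 against sgAAVS1 (limma adjusted p = 0.0781), -0.22 ± 0.08 for sg1-IRF2 against sg2-IRF2 (adjusted p = 0.176) and 0.14 ± 0.07 for both guides against sgAAVS1 (adjusted p = 0.441). Over 18 alternatives for sg2-IRF2 against sgAAVS1 it was called under 2, with adjusted p from 0.0143 to 0.373, one of them the fit without sgAAVS1 replicate 1 (0.031). Its core partner RPS27, a zinc-binding protein of the small subunit, had 5.80 and 5.64 in sg1-IRF2 libraries and 5.78 and 5.75 in sg2-IRF2 libraries, against 5.82 and 5.64 in sgAAVS1 libraries and 5.76 and 5.79 in untransduced cells. RPS27 overlapped in every pair of groups.

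**Figure D2:**
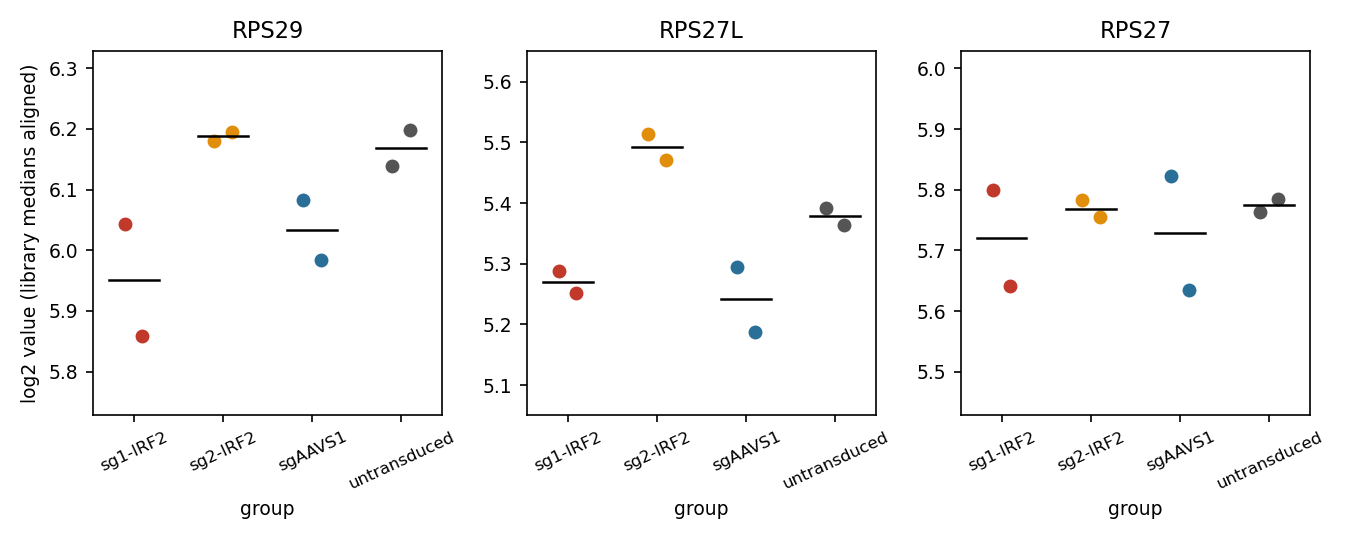
Aligned log2 value (y axis) of RPS29, RPS27L and RPS27 in each library (points) by group (x axis), with the mean of the 2 libraries as a line. All panels span the same height. For RPS29 and RPS27L the sg2-IRF2 and untransduced points lie above those of sg1-IRF2 and sgAAVS1, and for RPS27 the points of all groups overlap.

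The other paralogs were described beside their core partners. RPL22L1, which can stand in for RPL22, had aligned log2 values of 4.20 and 4.37 in sg1-IRF2 libraries and 4.39 and 4.40 in sg2-IRF2 libraries, against 4.15 and 4.31 in sgAAVS1 libraries and 4.39 and 4.31 in untransduced cells. It rests on 81 to 119 reads per library, the lowest depth of any member, and its difference between both guides and sgAAVS1 was 0.11 ± 0.10 (SE). RPL22 differed by 0.04 ± 0.04 in that comparison. RPL26L1 differed by 0.03 ± 0.09 beside -0.03 ± 0.06 for RPL26, and RPL39L by -0.01 ± 0.09 beside -0.02 ± 0.08 for RPL39.

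RPL7L1, a relative of RPL7 that takes part in assembly of the large subunit rather than in the finished ribosome, was the most abundant member by reads, at 1503 per library. It had aligned log2 values of 8.17 and 8.11 in sg1-IRF2 libraries and 8.10 and 8.08 in sg2-IRF2 libraries, against 8.20 and 8.13 in sgAAVS1 libraries and 8.07 and 8.11 in untransduced cells. Between both guides and sgAAVS1 it differed by -0.05 ± 0.04, beside -0.00 ± 0.06 for RPL7 (log2, SE). Its order of groups ran the other way from that of RPS29 and RPS27L, with the sg2-IRF2 and untransduced libraries below those of sg1-IRF2 and sgAAVS1 apart from a tie within rounding at 8.11.

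While groups did not separate the members, single libraries did. Measured from each gene's own mean over the 8 libraries, the median core gene stood at 0.05 and -0.08 with sg1-IRF2 and at -0.01 and 0.04 with sg2-IRF2, against 0.12 and -0.12 with sgAAVS1 and 0.00 and 0.00 in untransduced cells (log2). In the first sgAAVS1 library 75 of 77 core genes were above their own mean and in the second all 77 were below it. The first sgAAVS1 library was the highest of the 8 for 63 of 77 core genes, against 17.5% of tested genes, and the second was the lowest for 57 of 77, against 16.8%.

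**Figure D3:**
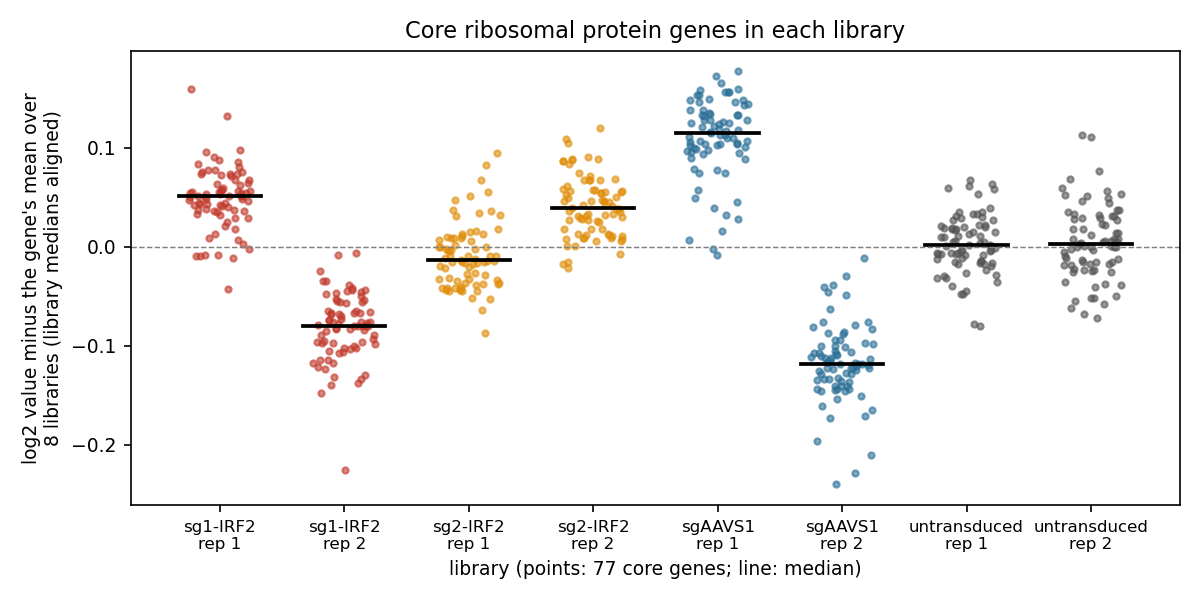
Deviation of each of 77 core genes (points) from its own mean over the 8 libraries (y axis, log2, library medians aligned), by library (x axis), with the median as a line. The points move as a block: sgAAVS1 replicate 1 has a median of 0.12, sgAAVS1 replicate 2 of -0.12 and the untransduced libraries of 0.00.

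The gap between the sgAAVS1 libraries had the same sign in all 77 core genes. It ran from 0.07 to 0.37 on the log2 scale, widest in RPS21, RPL24 and RPL18 and narrowest in RPS23, RPL27 and RPL31. RPS21 had 5.74 in the first sgAAVS1 library and 5.39 in the second, and RPL24 had 6.43 and 6.07. RPS23, by contrast, had 7.15 and 7.08, and RPL31 had 6.75 and 6.67. The median gap of 0.24 was larger than the median core difference of each of the 6 comparisons.

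The gap between replicates varied less over the core genes than counting noise of independent reads would give, and the cause was not tested. The SD of the gap over the 77 core genes was 0.047 with sg1-IRF2, 0.043 with sg2-IRF2, 0.065 with sgAAVS1 and 0.048 in untransduced cells, where counting error of independent reads gives a median of 0.084 to 0.086. For the core reads, chi-square between replicates per degree of freedom was 0.264 with sg1-IRF2, 0.257 with sg2-IRF2, 0.572 with sgAAVS1 and 0.295 in untransduced cells, where independent reads give 1. All 4 pairs lay below 1, so this does not set any pair apart as 1 library sequenced again, and both libraries of each group were kept.

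The level of the core genes went with library size. With sg1-IRF2 the median aligned log2 value of the 77 genes was 6.81 at 5748809 reads and 6.65 at 6394922 reads. With sg2-IRF2 it was 6.71 at 6440681 reads and 6.80 at 6122710 reads. With sgAAVS1 it was 6.86 at 5248359 reads and 6.65 at 6738348 reads, the smallest and the largest library, and in untransduced cells it was 6.73 at 6303033 and at 6320046 reads. In each group the library with fewer reads had the higher core median, though by under 0.01 in untransduced cells.

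Counted by gene, the library with fewer reads had the higher value for 77 of 77 core genes with sg1-IRF2, 69 with sg2-IRF2, 77 with sgAAVS1 and 41 in untransduced cells. Over all tested genes the share was between 49.4% and 58.3%. The core genes' reads grew less than the library did. The larger sgAAVS1 library had 1.28 times the reads of the smaller but 1.12 times the core reads, and the larger sg1-IRF2 library had 1.11 times the reads and 1.04 times the core reads. Of the 5 paralogs, 3 were higher in the smaller library for sg1-IRF2, sg2-IRF2 and sgAAVS1 and 4 in untransduced cells.

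**Figure D4:**
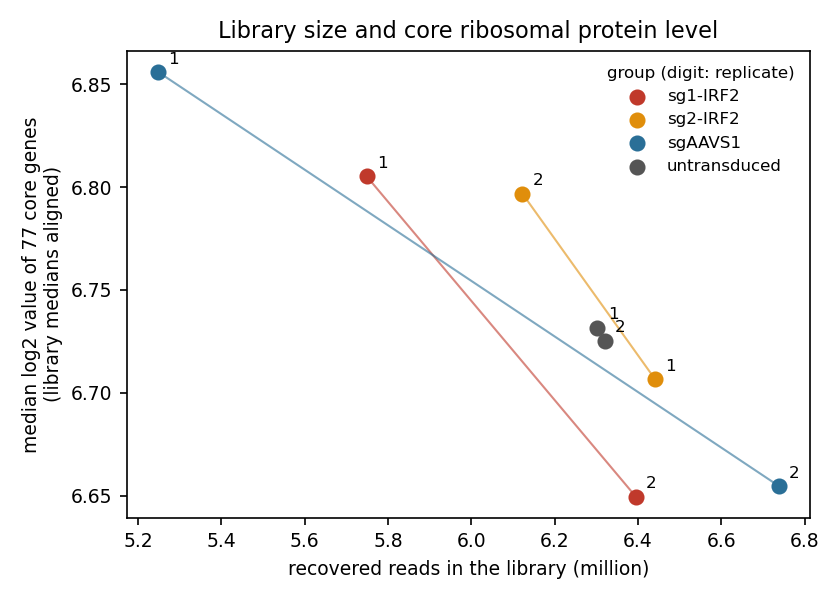
Median aligned log2 value of the 77 core genes (y axis) against reads in the library (x axis), with libraries of a group joined and digits for the replicate. The smallest library (sgAAVS1 replicate 1) has the highest median, 6.86, and the largest (sgAAVS1 replicate 2) has 6.65, and the libraries of the 4 groups are interleaved.

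Read density moved with this gap. Of 77 core genes 70 (90.9%) held at least 0.4 reads per base, against 951 of 11519 other tested genes with a length (8.26%). Among other genes the median gap between the sgAAVS1 libraries was -0.13 below 0.02 reads per base, -0.02 between 0.1 and 0.2, 0.06 between 0.2 and 0.4 and 0.14 at 0.8 and above (log2). In core genes it was 0.24 between 0.4 and 0.8 and 0.25 at 0.8 and above, with 30 and 40 genes. The bins below those held 4 and 3 core genes, with medians of 0.15 and 0.14.

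At 0.4 reads per base or more the median gap was 0.24 in core genes and 0.15 in the other genes, and among transcripts of at most 1000 bases it was 0.24 in 57 core genes of any density and 0.16 in 246 dense other genes. Core transcripts are short, with a median of 705 bases against 2771 over tested genes. The sources used here do not give how duplicate reads were handled. The part of library size, transcript length and read density in the gap was not tested.

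**Figure D5:**
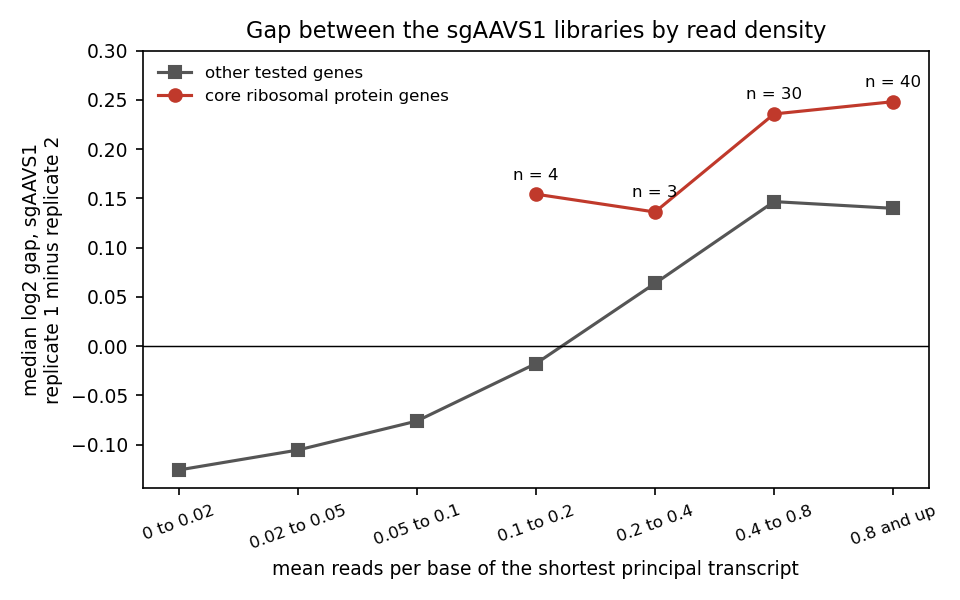
Median log2 gap between sgAAVS1 replicate 1 and replicate 2 (y axis) by mean reads per base (x axis) for other tested genes (squares) and core genes (circles, with their number). Other genes go from -0.13 in the sparsest bin to 0.14 in the densest, and core genes lie above them in every bin that holds any.

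Because the 2 sgAAVS1 libraries stand at both ends, each comparison with sgAAVS1 was also read without one of them, with the remaining sgAAVS1 library assumed to vary like the other groups. Without sgAAVS1 replicate 1, 3 members were called for both IRF2 guides against sgAAVS1, all higher: RPL18 at 0.27 ± 0.06 (SE, limma adjusted p = 0.00202), RPS16 at 0.20 ± 0.06 (adjusted p = 0.0385) and RPL32 at 0.19 ± 0.05 (adjusted p = 0.0306). In that fit 449 of 14665 genes were called, and the median core difference was 0.12. Without sgAAVS1 replicate 2 no member was called in that comparison and the median was -0.11. The direction of the core genes against sgAAVS1 was therefore set by which sgAAVS1 library was kept.

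For sg1-IRF2 against sgAAVS1 the median core difference was 0.11 without sgAAVS1 replicate 1 and -0.13 without replicate 2. For sg2-IRF2 against sgAAVS1 it was 0.13 without sgAAVS1 replicate 1 and -0.10 without replicate 2. For sgAAVS1 against untransduced cells it was -0.12 without sgAAVS1 replicate 1 and 0.12 without replicate 2. For both IRF2 guides against untransduced cells it ran from -0.04 to 0.03 when any 1 of the 8 libraries was left out.

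FAU, which encodes a ribosomal protein fused to a ubiquitin-like protein, RACK1 (listed as GNB2L1), a scaffold on the small subunit, and RPL36AL fall outside the naming rule. Between both IRF2 guides and sgAAVS1 they differed by 0.03 ± 0.07, -0.00 ± 0.05 and 0.00 ± 0.07 (log2, SE), and none was called in any comparison. None of 18 other TOP mRNAs, such as those of EEF1A1, EEF2, TPT1 and PABPC1, was called in any of the 6 comparisons (limma). Their median difference was 0.00 between both IRF2 guides and sgAAVS1, and 0 of them had an unadjusted p under 0.05. None of 13 entries of 12 snoRNA host genes, such as GAS5 and SNHG1, was called (limma), and 0 had an unadjusted p under 0.05 between both IRF2 guides and sgAAVS1.

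Among 65 ribosome assembly factors, 1 was lower and 0 were higher between both IRF2 guides and sgAAVS1 (limma), UTP20 at -0.19 ± 0.05 (adjusted p = 0.0403), near the 1.42% called over all tested genes. The median was -0.06, with 12 of 65 above 0, beside 0.00 over all tested genes. With sg2-IRF2 against sgAAVS1 3 fell, UTP20, LTV1 and SDAD1 (-0.26, -0.24 and -0.24), where 3.41% of tested genes were called, and the median was -0.08. In sgAAVS1 against untransduced cells UTP20 and GRWD1 rose (0.30 and 0.26), where 4.42% of tested genes were called, with a median of 0.08, and the calls with sgAAVS1 on the other side share those libraries. Between both guides and untransduced cells none was called and the median was 0.03.

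RNA polymerase I makes the ribosomal RNA precursor, and 2 of its 15 tested genes were lower between both IRF2 guides and sgAAVS1, POLR1A at -0.24 ± 0.04 (limma adjusted p = 0.00181) and POLR1B at -0.18 ± 0.04 (adjusted p = 0.0472), where 1.42% of tested genes were called. POLR1A, the largest subunit, had aligned log2 values of 8.14 and 8.13 in sg1-IRF2 libraries and 7.99 and 7.93 in sg2-IRF2 libraries, against 8.24 and 8.33 in sgAAVS1 libraries and 7.92 and 7.92 in untransduced cells. Its level with sgAAVS1 was above all other groups, and in sgAAVS1 against untransduced cells POLR1A, CD3EAP and POLR1B rose (0.36, 0.52 and 0.19), where 4.42% of tested genes were called. Against untransduced cells neither POLR1A nor POLR1B was called with the IRF2 guides. The larger sgAAVS1 library had the higher POLR1A value, unlike the core genes.

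Of 17 regulators of ribosomal protein mRNAs, RPTOR, the mTOR complex subunit that binds substrates, rose with both guides against untransduced cells (0.19 ± 0.04, limma adjusted p = 0.0187) and with sgAAVS1 against untransduced cells (0.25 ± 0.05, adjusted p = 0.00544), 1 of 17 in each, where 2.52% and 4.42% of tested genes were called. No regulator was called between both IRF2 guides and sgAAVS1, where MTOR stood at -0.03 ± 0.04 and LARP1 at -0.04 ± 0.04. Among 77 nuclear genes for mitochondrial ribosomal proteins, MRPL20 fell between both guides and sgAAVS1 (-0.26 ± 0.06, adjusted p = 0.0472) and likewise against untransduced cells (-0.25 ± 0.06, adjusted p = 0.0404). No other of the 77 was called in these 2 comparisons, and 1 of 77 does not exceed the share over all tested genes, 1.42% and 2.52%. Only 3 ribosomal protein pseudogenes are listed, with 191 to 251 reads in sum per library, and how reads that match both a member and its pseudogenes were counted is not given.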

How the data were processed

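RNA of K562 cells was extracted, depleted of ribosomal RNA and made into directional libraries, per the labels' protocols. Per the submitters' processing notes, cutadapt and Bowtie2 were used with hg38. Versions, counting tool, strand setting, annotation release and duplicate handling are not given in the sources used. In the deposited table each log2 value is a gene's reads over 1 factor per library. Whole reads were recovered from them (tolerance 0.01 read, 100% of values), and genes without reads are listed at 0.9 read. Depth limits precision, and read numbers cover counting error only.

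Genes with mean deposited log2 at or above 0 were tested after aligning library medians. All 4 group means were fitted to all 8 libraries with limma 3.58.1 in R 4.3.3 (eBayes with a mean-variance trend, 4 residual and 14.9 prior degrees of freedom). P-values were two-sided and adjusted by Benjamini-Hochberg over 14665 genes, with calls under 0.05. Python 3.11.15, numpy 2.4.6, pandas 2.3.3 and matplotlib 3.10.9 did the rest. Lengths and overlaps came from GENCODE 29. The fit was tested on simulated counts, drawn as independent reads without spread between libraries. They lack the shared shift and the low spread of the core genes, so the test does not cover those features.

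Members and gene lists were chosen with earlier results of these data known. Named genes were the 4 members of lowest p in each subunit for both guides against sgAAVS1, all paralogs with partners, 12 genes of known role, the extremes of the sgAAVS1 gap and of read density, and called genes of other lists. Some of these are not reported here. RPS29 and the genes called without 1 library or not overlapping were named after their values were seen. Alternatives covered scaling, filter, variance model, voom, replicate block, groups in the fit, each library left out and, added after seeing the data, total reads as a covariate.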

Additional observations from a re-analysis of the deposited data

How the results depend on the processing

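Of 126 counts of members called under other settings 102 were 0 and the largest was 10. Shares of all tested genes called under these settings are not set beside them here, so the counts are no result about the members. On the values as deposited, whose library medians lie between 5.54 and 5.69, 1 member (RPL7L1) was called for sg2-IRF2 against sgAAVS1, 1 for sg1-IRF2 against sg2-IRF2 and 1 in the F-test and the median core difference for sg1-IRF2 against sg2-IRF2 was 0.0832, with the sign turned. For sg1-IRF2 against sg2-IRF2, RPS29 was the 1 member called with no filter on low values, with array weights and with the fit limited to both groups, and for the first 2 of these also 1 in the F-test. With log2 total reads as a covariate, chosen after seeing the data, 1 member was called for both guides against sgAAVS1 (RPL18), 10 for sg2-IRF2 against sgAAVS1, 1 for both guides against untransduced cells (RPL37), 5 for sgAAVS1 against untransduced cells, 6 for sg1-IRF2 against sg2-IRF2 and 8 in the F-test. The cause was not tested. With 1 library left out, members called ranged from 0 to 3 for both guides against sgAAVS1, 0 to 0 for sg1-IRF2 and 0 to 10 for sg2-IRF2 against sgAAVS1, 0 to 0 for both guides and 0 to 7 for sgAAVS1 against untransduced cells, 0 to 1 between the guides and 0 to 8 in the F-test.

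The median core difference then ranged from -0.115 to 0.121 for both guides, -0.132 to 0.111 for sg1-IRF2 and -0.100 to 0.133 for sg2-IRF2 against sgAAVS1, from -0.0367 to 0.0308 for both guides and -0.123 to 0.116 for sgAAVS1 against untransduced cells, and from -0.0957 to 0.0412 between the guides. Of 738 values of named members for both guides against sgAAVS1 under other settings, 734 stayed uncalled, whatever their direction. A further 4 passed the threshold in the direction of the main fit and 0 in the other. No named member was called in the main fit, so no call could be lost and these numbers do not measure stability. With the replicate block 0 members were called in every comparison. Deviations of same-numbered libraries correlated at -0.0386 to 0.0630 over all tested genes, which does not settle whether the numbers mark a batch. In core genes the first library was the higher for 77 of 77 with sg1-IRF2 and with sgAAVS1. It was the higher for 41 in untransduced cells, and with sg2-IRF2 the second was the higher for 69. The planned edgeR and DESeq2 fits were not run. The deposited unit is log2, and of the methods for counts only limma-voom was applied to the recovered reads. Having 2 libraries a group, and RPL22L1 with 81 to 119 reads, limits what can be detected.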
